A study of Mus musculus with 18 samples.

Results

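The CaMKII family (calcium/calmodulin-dependent protein kinase II) was examined in wt1-SAM brown adipocytes in which the long noncoding RNA Gm15551 was targeted with LNA gapmers. The members were chosen by symbol and comprised the kinase genes Camk2a, Camk2b, Camk2d and Camk2g and the inhibitor gene Camk2n1. They were 5 of the 54347 genes in the count table. The wt1-SAM line is an immortalised mouse brown preadipocyte line that stably expresses the CRISPR activation system SAM, so the control cells carry SAM as well, and the cells had been differentiated into adipocytes before transfection. Every culture received a gapmer, which was either the non-targeting ctrlA or LNA1 or LNA2 against Gm15551 (1.4 µl of a 10 µM stock to 500000 cells), and was left unstimulated or stimulated with 1 µM isoproterenol, a β-adrenergic agonist, for 24 h. Each of the 6 groups held 3 libraries of polyadenylated RNA, numbered replicate 2, 3 and 4, and nothing in the labels states that these were separate cultures, so the p-values measure the spread between these samples, which may be technical.

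CaMKII is a serine/threonine kinase that is switched on when calcium-loaded calmodulin binds to it, and that can phosphorylate itself and remain active after calcium has fallen. The holoenzyme is assembled from subunits encoded by the 4 kinase genes. The α and β subunits are best known from neurons, and the δ and γ subunits are found in many tissues, δ being the main form in heart. Camk2n1 and its relative Camk2n2 encode small proteins that bind and inhibit the kinase. In brown adipocytes β-adrenergic receptors signal through cyclic AMP and protein kinase A, which drive lipolysis and heat production.

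Camk2d is the host gene of the targeted transcript (GRCm38, GENCODE M21 annotation). Camk2d (ENSMUSG00000053819.16) lies on the plus strand at chr3:126596302-126846326, and Gm15551 (ENSMUSG00000086679.2) lies within it on the opposite strand at chr3:126667329-126669044. Gm15551 is annotated as an antisense gene of 2 exons, and its exons shared 0 bp with exons of Camk2d. The gapmers are shown here because their target sites lie inside the host gene. They are given 5′ to 3′ in lower case, as the study's oligonucleotide list has them.
ctrlA: aacacgtctatacgc
LNA1: gatgactgagattaga
LNA2: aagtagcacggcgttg
Both target sites lie in exon 2 of Gm15551. The stretch of the 535-base transcript from position 231 to 372 (chr3:126667492-126667633, minus strand) is printed with the LNA2 site first and the LNA1 site second, both in capitals.
Gm15551: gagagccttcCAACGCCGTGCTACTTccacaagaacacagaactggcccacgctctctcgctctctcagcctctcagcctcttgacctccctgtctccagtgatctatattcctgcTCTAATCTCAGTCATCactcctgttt
The sites are separated by 90 bases, with the LNA2 site at chr3:126667608-126667623 and the LNA1 site at chr3:126667502-126667517. Both fall in intron 2 of all 9 coding Camk2d transcripts that span them and in the exon of 0 of these. Since Camk2d is read from the other strand, each gapmer has the same sequence as the Camk2d strand at this place and is not complementary to it. Each Gm15551 gapmer was fully complementary to annotated transcripts of 1 gene, which was Gm15551, and ctrlA to transcripts of 0 genes. In spliced Camk2d transcripts the best match had 3 mismatches for LNA1, 4 for LNA2 and 4 for ctrlA. The longest complementary run, which may lie at another site, was 9, 8 and 7 nt. In Camk2g transcripts the best match had 5 mismatches for each of the 3 gapmers. These searches covered spliced annotated transcripts, and the remaining intron sequence of Camk2d was not searched.

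**Figure D1:**
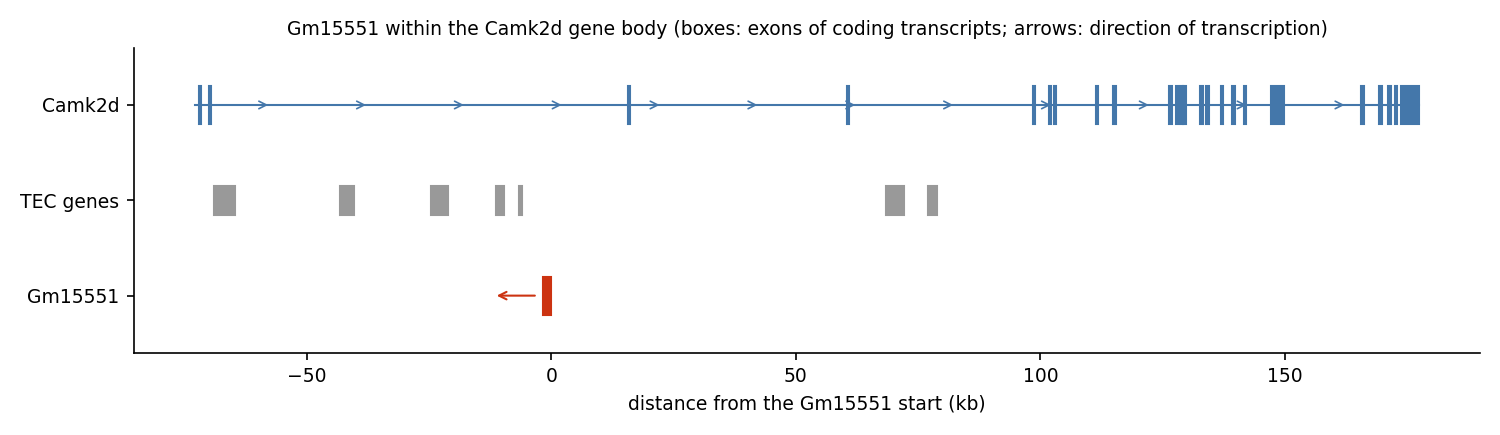
Map of the Camk2d gene body with distance from the Gm15551 start in kb on the x axis. Boxes in the top row are exons of coding Camk2d transcripts, grey boxes are 7 unconfirmed (TEC) genes and the red box is Gm15551, which lies between exons of Camk2d and is read in the opposite direction.

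The targeted transcript itself was close to the limit of counting. Gm15551 had 14, 8 and 7 counts in the unstimulated ctrlA libraries (replicates 2, 3 and 4) and 9, 2 and 2 with isoproterenol. With LNA1 the counts were 12, 3 and 3 unstimulated and 1, 4 and 1 stimulated. With LNA2 they were 13, 3 and 1 unstimulated and 4, 5 and 1 stimulated. The totals were 42 for ctrlA, 24 for LNA1 and 27 for LNA2, and the ranges overlapped. As 9 of the 18 libraries held 3 counts or fewer, the extent of the knockdown was not measurable from these counts at this depth. The study itself reports a robust fall of Gm15551 with both gapmers against the non-targeting control. Library totals ran from 9167560 to 19723021 counts, and 3 counts, used here as the detection floor, corresponded to 0.170 to 0.306 CPM. All CPM values are library-scaled counts (TMM CPM). Replicate 2 stood apart in every group, with 7.86 to 9.79% mitochondrial counts and 2.88 to 14.3% rRNA counts against 2.56 to 4.97% and 0.285 to 1.04% in replicates 3 and 4. 

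Camk2d and Camk2g carried nearly all CaMKII kinase reads. Camk2d ranged from 914 to 1984 counts per library and Camk2g (ENSMUSG00000021820.18, chr14:20734875-20794088, minus strand) from 295 to 494. Camk2b (ENSMUSG00000057897.14, chr11:5969644-6066362, minus strand) had 48 counts in all 18 libraries together and was over the floor in 6 of them. Camk2a (ENSMUSG00000024617.16, chr18:60925618-60988152, plus strand) had 29 counts and was at or under the floor in 18 of 18. The summed level of 4 neuron markers was 0.216 to 2.20 CPM. The inhibitor gene Camk2n1 (ENSMUSG00000046447.3, chr4:138454314-138460123, plus strand) had 129 counts in total and was at or under the floor in 5 libraries. Exons of the 5 members shared 0 bp with exons of other annotated genes.

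**Figure D2:**
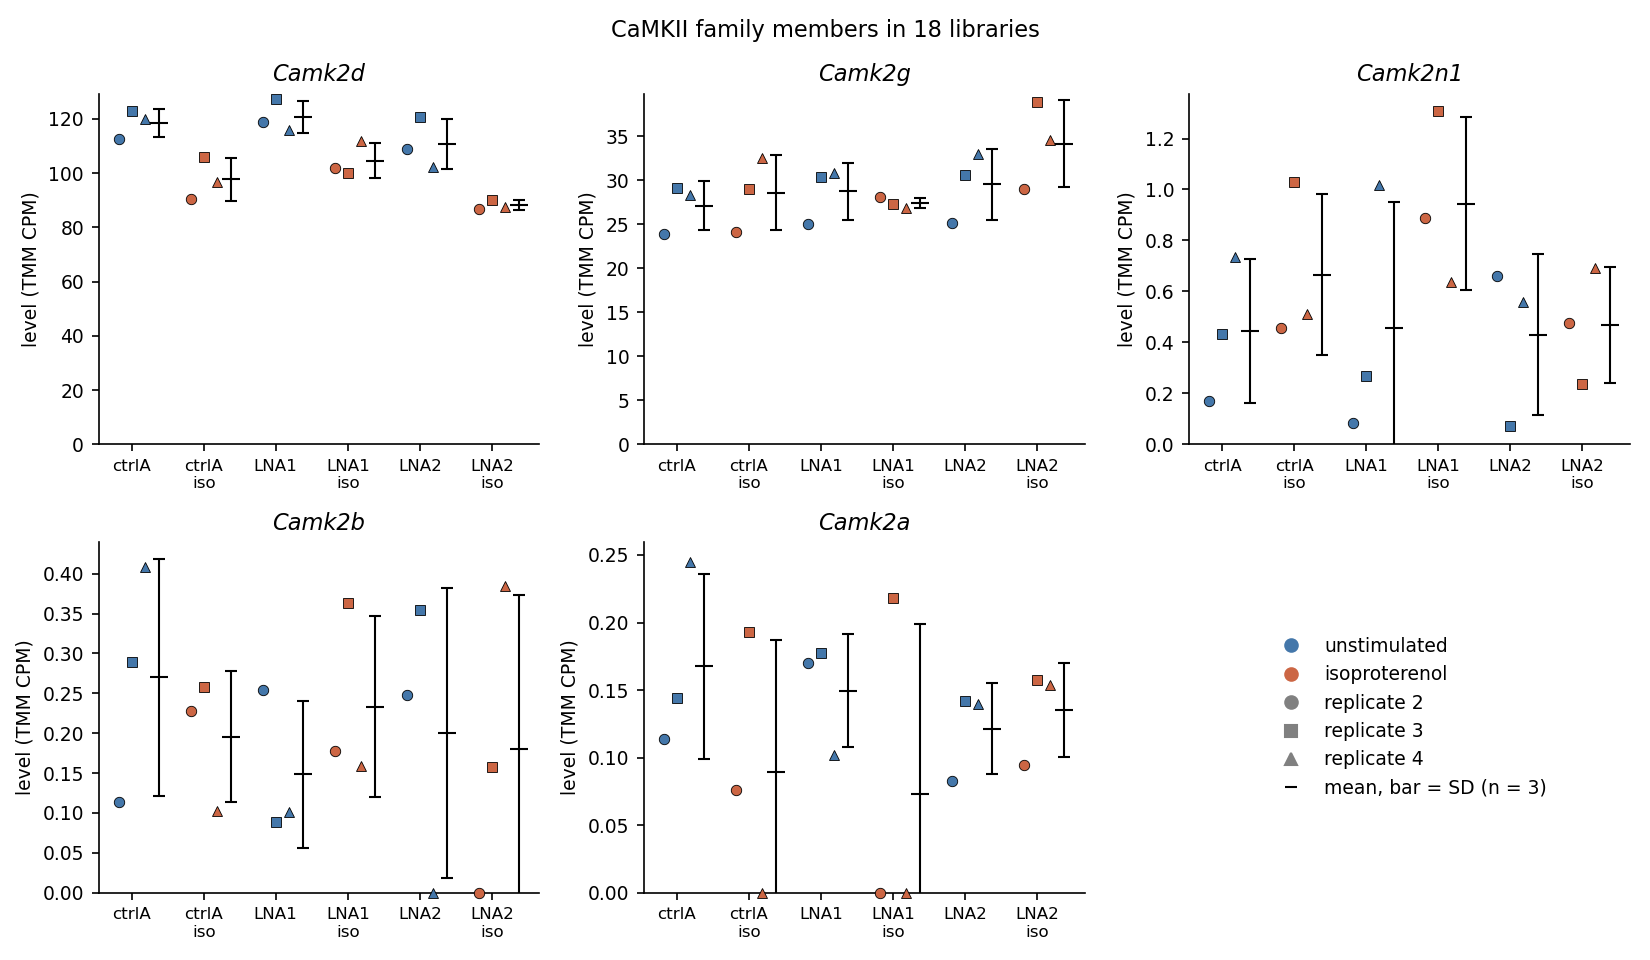
Level of each member (TMM CPM, y axes differ) in the 6 groups; symbols are libraries by replicate number, and the bar beside them is mean ± SD of 3 libraries, drawn down to 0 where it would go below. Camk2d lies between 86.8 and 127 CPM and Camk2g between 23.9 and 38.8 CPM, while Camk2n1, Camk2b and Camk2a stay below 1.31 CPM.

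Levels of different genes were compared per kilobase, and the order of the kinases depended on which length was used. Per kb of all annotated exons, Camk2d (22.493 kb) had a median of 4.78 (range 3.86 to 5.66) CPM per kb and Camk2g (6.401 kb) 4.53 (3.73 to 6.07), with Camk2d higher in 13 of 18 libraries. These ranges overlap, so the pair cannot be ordered on this scale. Per kb of the median coding transcript (4.075 and 0.822 kb) the medians were 26.4 and 35.3, and Camk2d was higher in 0 of 18 libraries. Per kb of the longest coding transcript (5.524 and 3.703 kb), a length chosen after the data were seen, they were 19.5 and 7.83, and Camk2d was higher in 18 of 18. Transcripts of 28 annotated kinds for Camk2d and 17 for Camk2g were summed in the table, so the true lengths are not known from it. The other members lay below both under each length, with medians of 0.120 (0.0159 to 0.295) for Camk2n1, 0.0222 (0 to 0.0447) for Camk2b and 0.0189 (0 to 0.0328) CPM per kb of exon for Camk2a. Per kb of median coding transcript they were 0.120, 0.105 and 0.104. Their ranges overlapped under each length, so these 3 cannot be ordered either.

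Of the inhibitors, Camk2n2 was by far the more abundant. Camk2n2 is no member of the set but belongs to the calmodulin list, and its median was 10.6 (3.22 to 14.2) CPM per kb, a median of 55.1 times (18.9 to 126) the level of Camk2n1 in the 13 libraries where Camk2n1 was over the floor. In the other 5 it was at least 56.2 to 201 times higher, with the floor of 3 counts per library in place of Camk2n1. Its level followed the replicate number. It was 4.16 to 6.61 CPM in the 6 replicate 2 libraries and 12.4 to 18.3 CPM in the other 12, so these did not overlap, whereas its differences between the groups were between -0.23 and 0.15 on the log2 scale and passed in 0 of the 4 averaged comparisons (lowest adjusted p = 0.949).

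**Figure D3:**
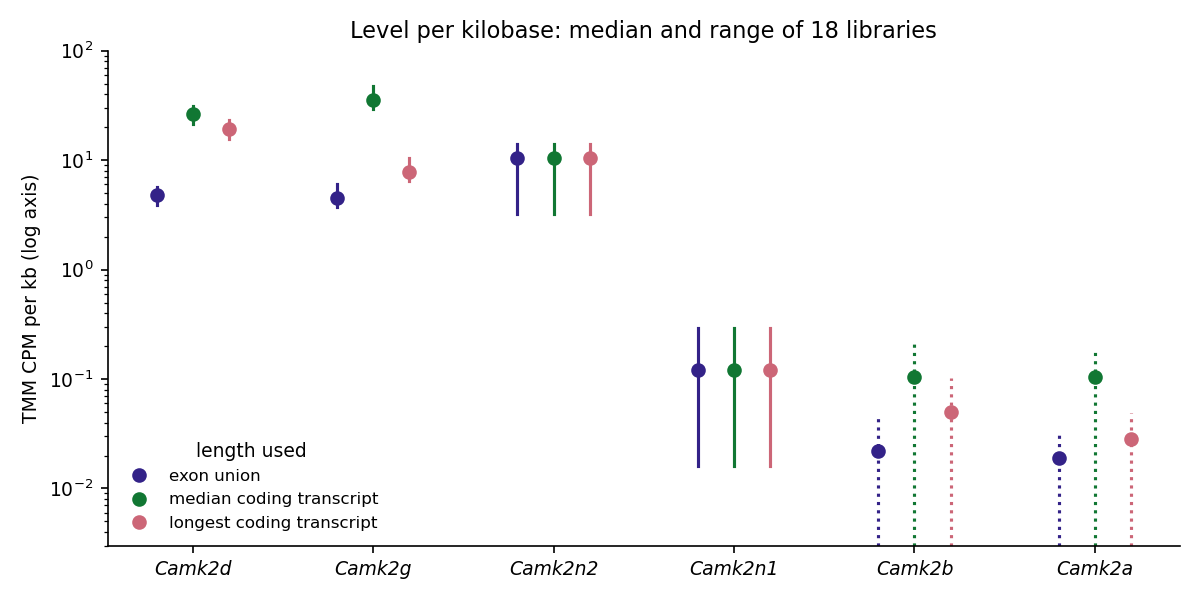
Level per kilobase (TMM CPM per kb, log axis) of the kinases and inhibitors under 3 definitions of gene length; points are medians and lines the range of 18 libraries, dotted where the lowest library is at 0. Camk2d and Camk2g change order with the length used, while Camk2n1, Camk2b and Camk2a stay at or below 0.295 CPM per kb.

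The first comparison asked what β-adrenergic stimulation did to the family. Camk2d fell by 17.1% with isoproterenol on average over the 3 gapmers, and it was the only one of the 3 tested members to pass. With ctrlA its level was 113, 123 and 120 CPM in the unstimulated libraries (replicates 2, 3 and 4) and 90.5, 106 and 96.6 CPM in the stimulated ones. With LNA1 it was 119, 127 and 116 CPM unstimulated and 102, 100 and 112 CPM stimulated. With LNA2 it was 109, 121 and 102 CPM unstimulated and 86.8, 90.2 and 87.5 CPM stimulated. The stimulated library was the lower in 9 of 9 pairs of the same gapmer and replicate number, and 7 of the 9 stimulated libraries lay below the lowest unstimulated one, though the ranges overlapped. The means were 116.6 ± 7.61 CPM (SD, n = 9) and 96.8 ± 8.84 CPM (SD, n = 9).

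The fitted log2 difference of Camk2d was -0.27 (SE 0.06, 95% CI -0.41 to -0.13, adjusted p = 0.0230, edgeR quasi-likelihood test with Benjamini-Hochberg adjustment over 14949 genes). In this comparison 4.58% of all genes tested passed at an adjusted p below 0.05, and 1.91% passed as lower, while 3.2% passed with a log2 change above 0.5 as well, a limit that Camk2d does not reach. With the replicate number as a block the difference was the same and the adjusted p 0.000109, in a fit in which 26.4% of genes passed. Within replicate numbers the mean log2 difference of the CPM was -0.29 in replicate 2, -0.33 in replicate 3 and -0.20 in replicate 4. With the replicate 2 libraries left out Camk2d still passed, at -0.27 (SE 0.07, adjusted p = 0.0233). Without the filter on low counts the difference was -0.27 (SE 0.11), but the call was lost (adjusted p = 0.452, edgeR). The call without the block was close to the threshold. It was lost in 8 of 18 fits that left out 1 library, with the difference between -0.27 and -0.25 in those 8. The adjusted p was 0.0517 without ctrlA stimulated replicate 2, 0.0504 without LNA1 stimulated replicate 2, 0.0625 without ctrlA unstimulated replicate 3, 0.0643 without LNA1 unstimulated replicate 3, 0.0606 without LNA1 stimulated replicate 3, 0.0674 without LNA2 unstimulated replicate 3, 0.0539 without ctrlA unstimulated replicate 4 and 0.0536 without ctrlA stimulated replicate 4. In bulk RNA fewer cells that express a gene and less RNA per cell cannot be told apart. The summed level of the 8 brown adipocyte markers was 11656 to 22552 CPM unstimulated and 8478 to 16898 CPM stimulated, with 8 of 8 detected in every library, but Fabp4, a fatty acid binding protein gene, made up 80.8 to 91.9% of this sum. The other 7 summed to 1775 ± 95.9 CPM unstimulated and 1548 ± 139 CPM stimulated (SD, n = 9 per arm). Of the 8 genes 3 rose with isoproterenol, which were Ucp1, Cidea and Ppargc1a, and 1 fell, Adipoq, at -0.71 (SE 0.14, adjusted p = 0.00730, edgeR), while Fabp4 differed by -0.45 (SE 0.22, adjusted p = 0.357). With the block 4 passed as higher and 3, among them Fabp4, as lower. That of the macrophage markers was 7.89 to 26.3 CPM unstimulated and 12.03 to 42.5 CPM stimulated; of these 4 genes Cd68 was over the floor in 18 libraries, Lyz2 in 4 and Ptprc and Adgre1 in 0. The part of either in the result was not tested.

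**Figure D4:**
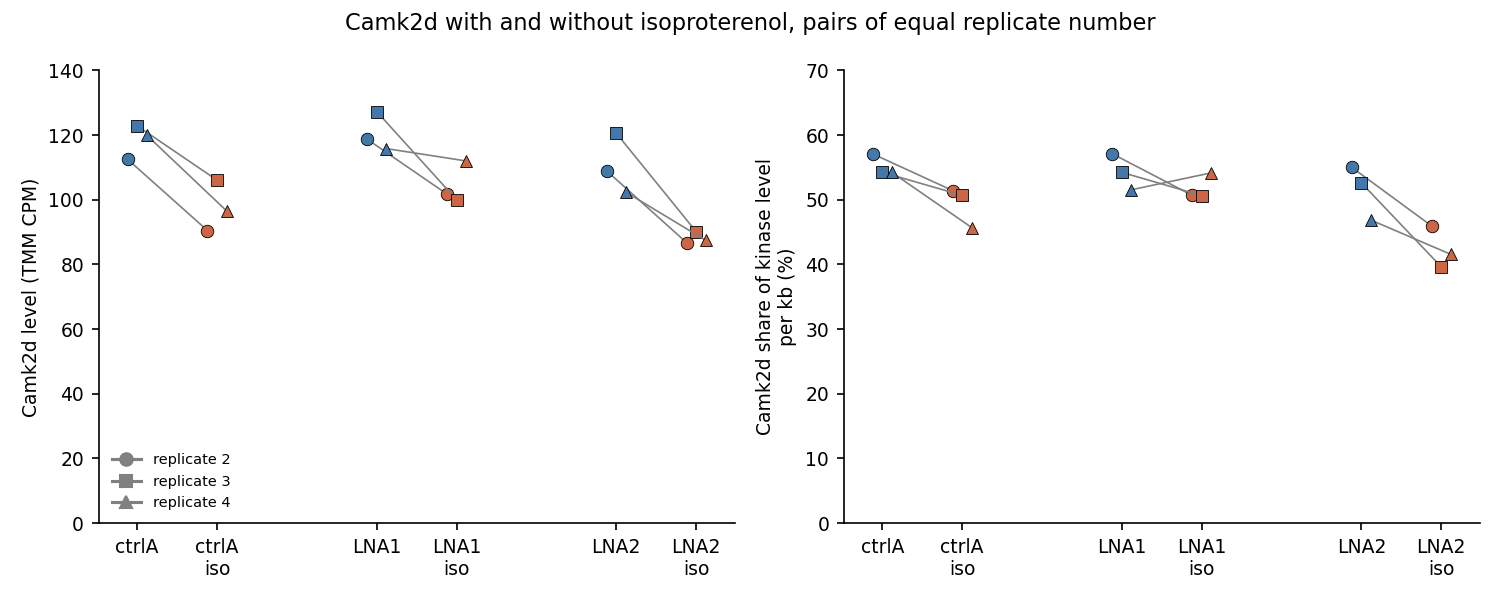
Camk2d in each library without and with isoproterenol, joined by replicate number; left, level in TMM CPM, and right, share of Camk2d in the summed level per kb of the 4 kinase genes in percent. All 9 lines fall on the left, and 8 of 9 fall on the right, LNA1 replicate 4 being the exception.

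Camk2g, which encodes the γ subunit, did not pass. Its values with ctrlA were 23.9, 29.2 and 28.3 CPM unstimulated and 24.1, 29.0 and 32.6 CPM stimulated. With LNA1 they were 25.0, 30.3 and 30.8 CPM and then 28.0, 27.3 and 26.9 CPM. With LNA2 they were 25.1, 30.5 and 32.9 CPM and then 29.0, 38.8 and 34.6 CPM. The stimulated library was higher in 6 of 9 pairs, and the log2 difference was 0.07 (SE 0.09, 95% CI -0.13 to 0.27, adjusted p = 0.859, edgeR). The interval corresponds to a change of -8.31 to 20.5%.

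The share of Camk2d in the summed kinase level per kb of exon fell with isoproterenol, from 53.7 ± 3.13% (SD, n = 9) in unstimulated to 47.8 ± 4.90% (SD, n = 9) in stimulated cells. It ranged from 46.9 to 57.1% unstimulated and from 39.6 to 54.2% stimulated, and was lower in 8 of 9 pairs. The difference of -5.83 percentage points had p = 0.00075 in an exact two-sided permutation test within gapmers and 0.006 after adjustment over 8 tests of ratios (n = 9 per arm). Exchanging labels only within pairs gave an exact p of 0.00781. The height of the share depends on the gene length used. It was 45.2 ± 3.11% and 39.5 ± 4.66% per kb of median coding transcript, and 73.1 ± 2.53% and 68.2 ± 4.34% per kb of the longest. The difference was -5.67 and -4.93 points under these lengths, lower in 8 of 9 pairs each time, with the same exact p of 0.00075. The sum rests on Camk2d and Camk2g, and another length scales their ratio by the same factor in every library. The directions of the pairs and the p were therefore nearly fixed in advance and give no further support. The share test also uses the Camk2d values of the preceding test and is not independent of it.

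The low members could not be separated between conditions. Camk2n1 counts with ctrlA were 3, 6 and 9 unstimulated and 6, 16 and 5 stimulated. With LNA1 they were 1, 3 and 10 and then 10, 18 and 8. With LNA2 they were 8, 1 and 8 and then 5, 3 and 9. The stimulated total was 80 against 49 counts, but the ranges overlapped and the log2 difference of 0.62 (SE 0.45, 95% CI -0.35 to 1.60) had an adjusted p of 0.638 (edgeR). The gene entered the test through 4 libraries over the filter on low counts, 3 of them stimulated and 3 of them LNA1, so that arms where it was high decided its inclusion, and its differences are read as values only. Within replicate numbers the mean log2 difference of the CPM was 1.44 in replicate 2 and 1.76 in replicate 3 but -0.30 in replicate 4. Relative to the summed kinase level per kb, Camk2n1 was 1.07 higher on the log2 scale (exact permutation p = 0.0757, adjusted 0.151, n = 9 per arm). With single libraries left out this difference was 0.71 to 1.37, and the unadjusted permutation p was 0.031 to 0.187. The ratio rests on 1 to 3 Camk2n1 counts in the 5 libraries at or under the floor, so no conclusion is drawn from this test. Camk2b counts, which passed no filter on low values, were between 0 and 5 in every library, and its 24 counts in unstimulated and 24 in stimulated cells gave an exact permutation p of 0.961 (n = 9 per arm). Camk2a, with 17 and 12 counts, was not tested.

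The second comparison asked whether the gapmers against Gm15551 altered the host gene or its relatives. Over both stimulation states the mean level of Camk2d was 108 ± 12.9 CPM in ctrlA cells, 113 ± 10.4 in LNA1 cells and 99.4 ± 13.7 in LNA2 cells (SD, n = 6 per gapmer). Against ctrlA it passed the test for neither gapmer. For LNA1 the log2 difference was 0.06 (SE 0.08, adjusted p = 1.00, edgeR), higher in 4 of 6 pairs, and its 95% CI of -0.11 to 0.23 corresponds to a change of -7.23 to 17.5%. This difference was 0.0339 to 0.0909 when single libraries were left out. For LNA2 it was -0.12 (SE 0.08, adjusted p = 0.697, edgeR), lower in 6 of 6 pairs, with a 95% CI of -18.4 to 3.28% change. In edgeR 0 of 3 tested members passed for LNA1, where 0.475% of all genes passed (7.8% with the block), and 0 for LNA2, where 1.59% passed. In this edgeR fit 0 members had an unadjusted p below 0.05, the lowest being 0.440 for Camk2d with LNA1 and 0.105 for Camk2g with LNA2. DESeq2 also called 0 members for either gapmer, but there Camk2d with LNA2 had an unadjusted p of 0.0392 (adjusted 0.375).

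Taking the replicate numbers into account changed 1 call for LNA2, that of Camk2g. Its mean was 27.8 ± 3.33 CPM in ctrlA and 31.8 ± 4.75 CPM in LNA2 libraries (SD, n = 6 per gapmer), higher in 6 of 6 pairs, with a log2 difference of 0.19 (SE 0.11, adjusted p = 0.645, edgeR). With the replicate block the same difference had an SE of 0.06 and an adjusted p of 0.0405, in a fit in which 20.6% of all genes passed and 9.43% passed as higher. Camk2d with LNA2 was -0.12 with the block as well, with a narrower 95% CI of -0.23 to -0.01 that lies below 0 and an unadjusted p of 0.0247, but it did not pass after adjustment (adjusted p = 0.0899 in edgeR and 0.0599 in DESeq2 with the block). DESeq2 with the block did not call Camk2g for LNA2, so this call depends on the tool. Marker levels were compared between ctrlA and LNA2 as well. The ranges of the summed brown adipocyte, preadipocyte or fibroblast, muscle and endothelial markers overlapped in both stimulation states. The brown adipocyte sum, for example, was 13696 to 22552 CPM with ctrlA and 11656 to 18908 CPM with LNA2 in unstimulated cells. Only the macrophage and neuron sums separated, and how many of all genes separate in this way was not counted. The summed macrophage markers, of which Cd68 alone was over the floor in all 18 libraries, were 7.89 to 12.2 CPM with ctrlA against 13.7 to 26.3 CPM with LNA2 in unstimulated cells, and 12.03 to 24.0 against 25.0 to 42.5 CPM in stimulated cells, with no overlap in either state. The summed neuron markers were 0.216 to 0.794 CPM with ctrlA against 0.909 to 0.921 CPM with LNA2 in unstimulated cells, and 0.322 to 0.684 against 0.769 to 2.20 CPM in stimulated cells, also with no overlap; of these 4 genes Snap25 was over the floor in 15 libraries, Tubb3 in 6 and Rbfox3 and Syt1 in 0. The part of either in the LNA2 differences of Camk2d, Camk2g and the Camk2d share was not tested. With LNA1 Camk2g was 28.1 ± 2.19 CPM (SD, n = 6) and its log2 difference from ctrlA was 0.01 (SE 0.11). Camk2n1 differed from ctrlA by 0.25 (SE 0.54) with LNA1 and by -0.27 (SE 0.55) with LNA2, with adjusted p of 1.00 and 0.976 in edgeR. With single libraries left out the LNA2 difference of Camk2n1 ran from -0.478 to -0.00384.

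**Figure D5:**
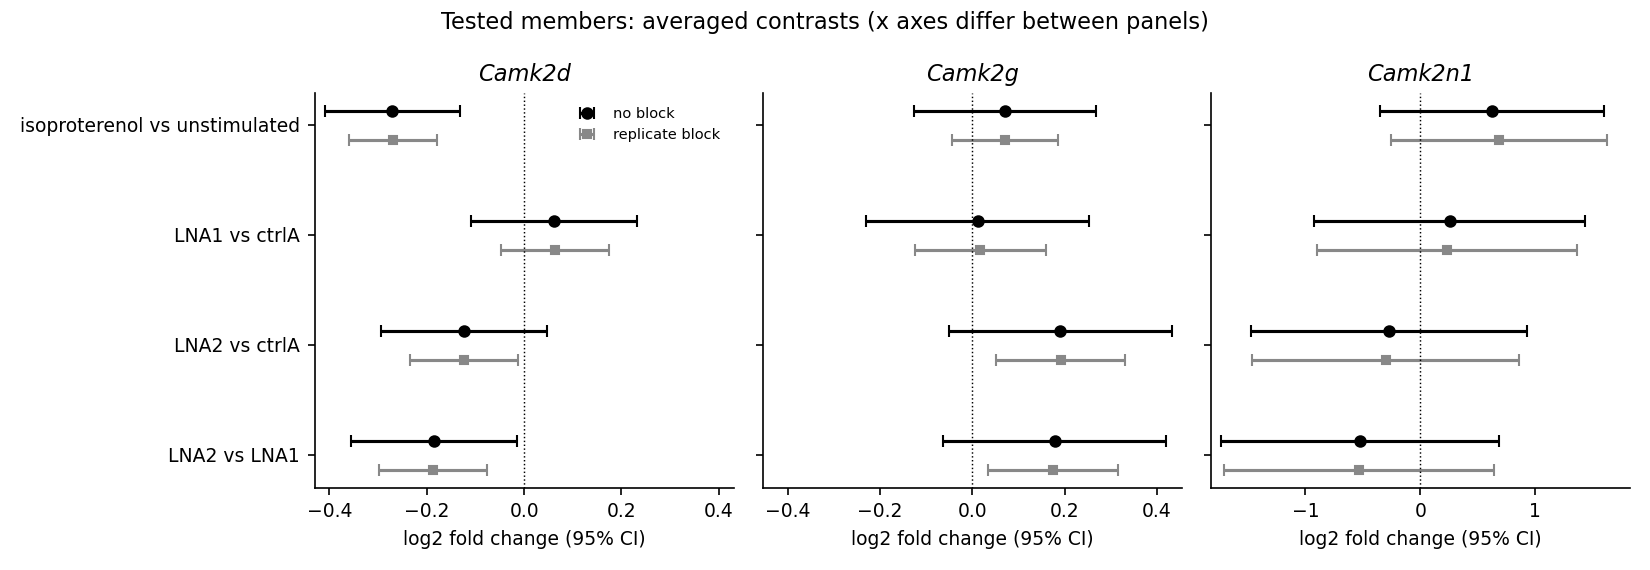
Log2 fold changes of the 3 tested members with 95% confidence intervals in the 4 averaged comparisons, fitted without (black) and with (grey) the replicate number as a block; the x axes differ between panels. The Camk2d intervals lie wholly below 0 for isoproterenol and LNA2 against LNA1 in both fits and for LNA2 in the blocked fit, the Camk2g intervals lie above 0 for LNA2 and LNA2 against LNA1 in the blocked fit, and the Camk2n1 intervals are the widest and all include 0.

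The gapmers were also compared with each other. Camk2d was lower with LNA2 than with LNA1 in 6 of 6 pairs, by -0.19 (SE 0.08, 95% CI -0.36 to -0.02, adjusted p = 0.442, edgeR), and 0 members passed, against 0.97% of all genes. The count was also 0 with DESeq2, and 1 member, Camk2d, had an unadjusted p below 0.05. With the block its adjusted p was 0.0190 in edgeR, where 15.4% of genes passed, and it passed in DESeq2, where 15.5% did. Within replicate numbers the mean log2 difference of the CPM was -0.18, -0.11 and -0.27 in replicates 2, 3 and 4. Camk2g was higher with LNA2 than with LNA1 in 6 of 6 pairs, by 0.18 (SE 0.11, adjusted p = 0.771 in edgeR, 0.0752 with the block). Camk2n1 differed by -0.53 (SE 0.55, 95% CI -1.73 to 0.68). These comparisons share their libraries with the LNA1 and LNA2 comparisons against ctrlA.

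The Camk2d share of the kinase level averaged 52.2 ± 3.93% in ctrlA, 53.1 ± 2.56% in LNA1 and 46.9 ± 6.01% in LNA2 libraries (SD, n = 6 per gapmer). Per kb of median coding transcript these shares were 43.8, 44.6 and 38.7%, and per kb of the longest 71.9, 72.7 and 67.3%. Whether Camk2d makes up most of the kinase level is therefore set by the length. LNA2 differed from ctrlA by -5.10 and -4.59 points under these lengths, with the same exact p of 0.03. This sameness was likewise nearly fixed in advance by the common scaling and gives no further support. The share with LNA2 was lower in 6 of 6 pairs against either of the others. Exact two-sided permutation tests within stimulation states (n = 6 per arm) gave p = 0.03 against ctrlA and p = 0.025 against LNA1, both 0.08 after adjustment over 8 tests, and p = 0.595 for LNA1 against ctrlA. The unadjusted p against ctrlA reached 0.05 or more without LNA2 unstimulated replicate 4 (0.06), LNA2 stimulated replicate 3 (0.06) or 4 (0.05), ctrlA unstimulated replicate 2 (0.07), or ctrlA stimulated replicate 2 (0.05) or 3 (0.05). Against LNA1 it did so without LNA1 unstimulated replicate 2 (0.055) or LNA1 stimulated replicate 4 (0.05). The lowest shares of the series were the 3 stimulated LNA2 libraries and the stimulated ctrlA replicate 4, at 46.0, 39.6, 41.6 and 45.7%.

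Whether the response to isoproterenol depended on the gapmer was tested directly. The response of Camk2d was -0.28 with ctrlA, -0.21 with LNA1 and -0.33 with LNA2 on the log2 scale. The differences of these responses from that with ctrlA were 0.07 (SE 0.16) for LNA1 and -0.05 (SE 0.16) for LNA2, and 0 of 3 tested members passed in either interaction (edgeR; 0 members also with DESeq2 and with the block), and 0 had an unadjusted p below 0.05. With single libraries left out, the Camk2d interaction with LNA1 was 0.0217 to 0.138. Of all 14949 genes 0 passed in either interaction in edgeR (0 with the block and 2 in DESeq2), and 105 for LNA1 and 116 for LNA2 had an unadjusted p below 0.05. Taken within single gapmers or stimulation states, with 3 libraries a side, Camk2d passed in 0 of 9 comparisons, its lowest unadjusted p being 0.00965 for isoproterenol with LNA2 (adjusted 0.481), and 3 of the 9 were below an unadjusted 0.05. The share of all genes passing without the block was 0.488, 0.702 and 0.395% for isoproterenol with ctrlA, LNA1 and LNA2, and 0.207% or less for the comparisons of gapmers (LNA1 against ctrlA 0 and 0.0134%, LNA2 against ctrlA 0.194 and 0.207%, LNA2 against LNA1 0.0334 and 0.187%, unstimulated and stimulated). DESeq2 without the block called isoproterenol with LNA2 alone, where 1.24% of genes passed. With the block 3 of 9 passed in edgeR, which were isoproterenol with ctrlA (adjusted p = 0.0206), isoproterenol with LNA2 (0.00785) and LNA2 against LNA1 in stimulated cells (0.0449), where 7.88, 9.55 and 6.98% of genes passed. The comparisons of either gapmer with ctrlA were not among them. In the joint test of all 6 groups, at the adjusted p limit of 0.001, Camk2d had an adjusted p of 0.150 without and 0.000829 with the block, where 0.455% and 8.93% of genes passed. It passed in DESeq2 without and with the block, where 3.72% and 19.1% did.

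Around the host locus, 44 further genes were annotated within 1 Mb of Gm15551, and 4 of them had enough counts for the test. Arsj, which encodes an arylsulfatase family member and lies 226954 bp away, rose with isoproterenol from 4.43 ± 1.23 to 6.92 ± 1.62 CPM (SD, n = 9 each), by 0.65 (SE 0.18, adjusted p = 0.0492, edgeR). This call was just inside the threshold and was kept in 5 of 18 fits that left out 1 library. For isoproterenol 4.58% of all genes passed, and 2.67% passed as higher. Ank2, an ankyrin that anchors membrane proteins, differed by -0.23 (SE 0.14, adjusted p = 0.543). Larp7, a protein that binds 7SK RNA, differed by 0.06 (SE 0.19) and Zgrf1, a helicase gene, by -0.12 (SE 0.10). None of the 4 passed for LNA1, LNA2 or their difference in edgeR without the block. With the block Zgrf1 passed for LNA2, at -0.35 (SE 0.08, adjusted p = 0.00611) with means of 40.3 ± 1.91 CPM (ctrlA) and 31.7 ± 5.68 CPM (LNA2, SD, n = 6 per gapmer). That blocked fit called 20.6% of all genes, so 1 of 4 neighbours is near the share of all genes. The 7 TEC genes inside the Camk2d body, which are read in the same direction as Camk2d, summed to 439 counts, with 131 for ctrlA, 164 for LNA1 and 144 for LNA2. Their summed level averaged 2.30 ± 1.10 CPM in unstimulated and 1.58 ± 0.588 CPM in stimulated libraries (SD, n = 9 per arm), with overlapping ranges.

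The wider calcium and calmodulin machinery was described with 4 gene lists. Of the calmodulin and CaM kinase cascade, 12 of 18 genes were tested and 1 rose with isoproterenol, namely Mylk, the calmodulin-dependent myosin light chain kinase, at 56.0 ± 10.1 and 67.5 ± 15.7 CPM (SD, n = 9 each; 0.25, SE 0.07, adjusted p = 0.0396). The list's median was 0.01 against 0.00 for all genes. Of the phosphatases that act on CaMKII or form calcineurin, 12 of 13 were tested and 2 rose with isoproterenol. These were the catalytic subunit genes Ppp1cc (0.28, SE 0.07, adjusted p = 0.0412) and Ppp2ca (0.27, SE 0.07, adjusted p = 0.0352), while the list's median was -0.05. Mylk, Ppp1cc and Ppp2ca kept their calls in 4, 4 and 5 of 18 fits that left out 1 library. Of calcium release, entry and pump genes, 15 of 20 were tested and 1 rose, Cacna1c, the pore subunit of an L-type calcium channel, from 1.70 ± 0.490 to 2.97 ± 0.772 CPM (0.84, SE 0.15, adjusted p = 0.00351), with a list median of -0.06.

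Among CaMKII substrates and transcriptional targets, 14 of 15 were tested and 2 rose with isoproterenol. Nr4a1, an immediate-early nuclear receptor gene, rose from 5.76 ± 1.72 to 24.0 ± 7.53 CPM (SD, n = 9 each), by 2.06 (SE 0.19, adjusted p = 7.91e-06, edgeR). Ppargc1a, a coactivator of mitochondrial and thermogenic genes that also stands among the brown adipocyte markers, rose from 52.3 ± 6.61 to 77.6 ± 12.1 CPM, by 0.56 (SE 0.09, adjusted p = 0.00147, edgeR). Both genes are also known targets of cyclic AMP signalling. The median of this list was 0.02. Across the 4 lists 6 of 53 genes passed as higher and 0 as lower with isoproterenol, where 2.67% and 1.91% of all genes did. With the block 9 passed as higher and 6 as lower, in a fit that called 26.4% of all genes, so the absence of lower calls does not hold there.

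The gapmers were read over the same lists. For LNA1 0 of 53 passed in edgeR, where 0.475% of all genes did, and 5 had an unadjusted p below 0.05. For LNA2 3 of 53 passed, where 1.59% of all genes did. With the block 4 passed as higher and 3 as lower for LNA1, and 10 as higher and 10 as lower for LNA2, in fits that called 7.8% and 20.6% of all genes. Of the 3 genes passing for LNA2 without the block, Orai2, a subunit of the store-operated calcium channel, rose from 4.24 ± 1.03 CPM with ctrlA to 14.1 ± 4.20 CPM (SD, n = 6 each), a log2 difference of 1.75 (SE 0.18, adjusted p = 0.000285, edgeR). It was 4.04 ± 0.782 CPM with LNA1, so LNA2 exceeded LNA1 by 1.80 (SE 0.18, adjusted p = 0.000312). Ppp3ca, the catalytic subunit of calcineurin, fell with LNA2 from 103 ± 14.5 to 71.8 ± 6.59 CPM, a log2 difference of -0.52 (SE 0.11, adjusted p = 0.0262, kept in 11 of 18 fits that left out 1 library). The mean level of Mylk was 61.5 ± 9.66 CPM in ctrlA, 76.0 ± 10.2 CPM in LNA1 and 47.9 ± 2.53 CPM in LNA2 libraries. It was lower with LNA2 than with ctrlA by -0.35 (SE 0.08, adjusted p = 0.0426, kept in 1 of 18 such fits) and lower than with LNA1 by -0.66 (SE 0.08, adjusted p = 0.00112, kept in 18 of 18).

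Genes whose level followed Camk2d most closely over the 18 libraries were, by Pearson's r of log2 CPM, Fam83a (0.91), Strip2 (0.91), Ext1 (0.90), Kmt5b (0.89) and Wdfy2 (0.89). The libraries share groups and replicate numbers, so these values describe the data set and carry no test. After subtraction of the replicate number means, 0 of these 5 remained among the 5 closest, with ranks of 14 to 46, and r was still 0.89 to 0.91. For Camk2n1 the closest were Nlrc4 (0.79), Gm47595 (0.75), Gm47766 (0.72), Pappa (0.70) and D6Ertd527e (0.69), several of them at similarly low counts. Camk2d and Camk2g were related by r = -0.30 over the 18 libraries, and by -0.59 after removal of the replicate means, again without a test.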

How the data were processed

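Polyadenylated RNA of 18 libraries (6 groups of 3) was sequenced as paired-end reads. Reads were filtered by quality in cutadapt and assigned to the Gencode M22 transcriptome (GRCm38) by salmon, both by the authors; the deposited values are expected counts per gene, given as whole numbers, not scaled to depth. Program versions, the use of strand and the summing of transcripts to genes are not given in the sources used here. salmon shares fragments among similar transcripts, so counts of paralogues are uncertain. Rows without a gene name numbered 201.

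Genes were filtered with filterByExpr (minimum count 10, total 15), which left 14949, among them 3 of the 5 members. Camk2n1 passed through 4 libraries with 10 or more counts, 3 of them stimulated. edgeR 4.0.16 (R 4.3.3) was used with TMM factors, 1 term per group, the quasi-likelihood test and Benjamini-Hochberg adjustment over all genes, with an adjusted p below 0.05 as passing. Confidence intervals used 12 residual degrees of freedom, or 10 with the block. DESeq2 1.42.0, the authors' tool, was an alternative, as were the replicate block, other scaling, no filter, a log2 limit of 0.5 and leaving out libraries. Ratios and Camk2b were tested by exact permutation. The fit was also tested on simulated data, and no result given here rests on that test. Positions and lengths came from GENCODE M21.

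Replicate numbers paired the samples: deviations from the group means correlated above 0.1 in 45 of 45 same-number pairs (0.24 to 0.72) against -0.60 to 0.40 between numbers. No libraries were identical. Named were all members, the up to 3 passing genes of lowest adjusted p per list and comparison, the 4 tested neighbours, and the 5 genes most like Camk2d and Camk2n1. Members, lists and tests were chosen with earlier results of these data known.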

Additional observations from a re-analysis of the deposited data

How the results depend on the processing

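The decrease of Camk2d with isoproterenol kept its direction under every alternative run. The number of members passing in that comparison was 1, and 0 without the filter on low counts or with a log2 limit of 0.5, and 0 to 1 when single libraries were left out. Without the filter the Camk2d difference was -0.27 (adjusted p = 0.452, edgeR). With the replicate block, 1 member passed for LNA2 against ctrlA (Camk2g), 1 for LNA2 against LNA1 (Camk2d; also 1 with DESeq2 and the block) and 1 in the joint test (Camk2d; also 1 with DESeq2 and 1 with DESeq2 and the block), and of the 9 single comparisons of Camk2d 3 passed, against 1 with DESeq2 and 3 with DESeq2 and the block. The block, which called 26.4, 7.8, 20.6 and 15.4% of all genes for isoproterenol, LNA1, LNA2 and LNA2 against LNA1, also moved the counts of list genes passing: the calmodulin cascade to 2, 6 and 3 of 12 for the last 3 of these comparisons, the phosphatases to 2, 4 and 5 of 12, the calcium genes to 6, 2, 5 and 3 of 15 for all 4, and the substrates to 6, 1, 5 and 4 of 14; of the neighbours 1 passed for LNA2. The block changed no other call of a member in the averaged comparisons or the interactions. With the replicate 2 libraries removed, the Camk2d share differed by -6.06 points for LNA2 (exact p = 0.0556) and by -7.49 for LNA2 against LNA1 (exact p = 0.111), but the smallest p that the remaining 2 against 2 libraries per state allow is 0.0556, so these tests could not pass and say nothing on stability. Leaving out single libraries gave share differences of -6.60 to -5.24 for isoproterenol, -0.0584 to 1.52 for LNA1, -6.19 to -4.14 for LNA2 and -7.03 to -4.98 for LNA2 against LNA1, and log2 Camk2n1 ratios of 0.71 to 1.37, -0.43 to 0.44, -0.80 to 0.0577 and -0.92 to 0.0305. Per kb of median coding transcript Camk2d exceeded Camk2g in 0 of 18 libraries, and with replicate means removed 0 and 2 of the 5 genes most like Camk2d and Camk2n1 remained. The sign changed for Camk2g with LNA1 (-0.0205 without the filter, -0.0214 without replicate 2 libraries, -0.0307 to 0.0608 leaving out single libraries), the LNA2 interaction of Camk2n1 (0.0891 without replicate 2 libraries), Camk2d with LNA1 unstimulated (-0.000243 without the filter, -0.0195 to 0.0515 leaving out single libraries), Camk2n1 with LNA1 (-0.39 to 0.52) and between gapmers (-0.77 to 0.12), and the interactions of Camk2n1 with LNA1 (-0.0893 to 1.74) and Camk2d with LNA2 (-0.105 to 0.0142). Without the filter the calls of Ppp1cc, Ppp2ca, Mylk and Arsj for isoproterenol and of Mylk and Ppp3ca for LNA2 were lost as well; so was Ppp1cc without the replicate 2 libraries, Mylk for LNA2 without rRNA and mitochondrial genes, and Mylk and Ppp3ca for LNA2 with only the compared groups in the fit. The differences themselves moved little, Mylk for LNA2 being -0.36, -0.34 and -0.34 in these fits (adjusted p = 0.552, 0.0519 and 0.118) against -0.35, and Ppp3ca -0.53 and -0.51 (adjusted p = 0.133 and 0.101) against -0.52. The cause was not tested. Depth limits Camk2a, Camk2b, Camk2n1 and Gm15551, whose counts lie near the floor.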
